A study of Mus musculus with 12 samples.

Results

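The baseline transcriptome of freshly isolated wild-type regulatory T cells (Tregs) was described from the 3 arrays labelled as wild-type Tregs, out of 12 arrays in the series. The series holds 4 genotypes of Treg (wild type, Ebi3 knockout, Il10 knockout and a knockout of both genes) with 3 arrays each, and no knockout array was used here. Mouse T cells were purified by fluorescence-activated sorting, were not treated or cultured, and their total RNA was hybridised to Affymetrix arrays. The wild-type arrays are numbered replicates 1, 2 and 3, and each is the only one of its genotype in its labelled batch, so array and batch cannot be told apart within them. The labels name neither the strain, age, sex or organ of the mice nor the gate of the sort, and whether each replicate is an animal of its own or a pool is not given.

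Tregs are CD4 T cells that hold other immune cells in check and prevent autoimmunity. The transcription factor Foxp3 fixes their identity, and they carry the high-affinity receptor for interleukin 2 (IL-2), which they need but hardly make themselves. They restrain other cells through the surface receptor Ctla4, by taking up IL-2, and by secreting cytokines such as IL-10, TGF beta and IL-35, the last a pair of the chains Ebi3 and Il12a. Freshly sorted cells also carry the imprint of recent signals and of handling, which immediate-early and heat shock genes record within minutes to hours.

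Signals are MAS5 signals, the array software's linear measure of brightness, obtained as exp(value) minus 20 from the deposited natural logs. Each of 18193 named genes was represented by its brightest probe set. Rank 1 is the gene of highest mean signal, and the percentile of a gene is the share of genes ranked at or below it. Brightness depends on how well a probe set binds as well as on the amount of RNA, so the ranks order array signals and not numbers of transcripts. Differences between arrays are taken within a probe set and are given as log2(signal + 20). They can still differ between probe sets of the same gene. A gene counted as above background where its signal exceeded, on all 3 arrays, the 95th percentile of 77 olfactory, vomeronasal and taste receptor genes. That level was 70.8, 46.7 and 71.0 on replicates 1, 2 and 3, and 9868 genes (54.2%) lay above it. Counts of list members above background are to be read beside that share.

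The arrays differed among themselves in ways that touch the results. Between pairs of arrays the correlation across genes of log2(signal + 20) was 0.960 to 0.963, a description in which genes are not independent replicates. Replicate 2 had the largest 3'-to-5' signal ratios of the control transcripts, 4.97 for Actb and 10.1 for Gapdh, against 1.65 to 2.15 and 3.31 to 4.81 on the other arrays. These ratios are a usual reading of RNA length after labelling. Replicate 3 differed from the others in sex-linked genes. Xist, the RNA that silences an X chromosome in female cells, read 2.6, 2.5 and 6237.5 on replicates 1, 2 and 3. The Y-linked Eif2s3y read 3754.4, 4477.6 and 43.0, Kdm5d read 964.1, 715.4 and 2.0, and Uty read 436.2, 261.5 and 22. Replicates 1 and 2 thus had high Y-linked and very low Xist signals, and replicate 3 the opposite.

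The 4 genes that mark Tregs were all bright. All 4 were among the brightest 10% of genes, against 10% of all genes by construction. Foxp3, read by 1 probe set, gave 7361.9, 6153.1 and 5390.6, a mean of 6301.9 ± 994 (SD, n = 3) at rank 719. Its arrays lay close together, with replicate 1 highest. Ctla4 gave 9630.1, 22126 and 11047, a mean of 14268 ± 6842 at rank 188, with replicate 2 well above the others. Ikzf2, the zinc finger protein Helios of Tregs that mature in the thymus, gave 14761, 13517 and 6833.6 at rank 263. Il2ra, the alpha chain of the IL-2 receptor (CD25), gave 5783.7, 3589.0 and 2304.3 at rank 1371. For Ikzf2 and Il2ra replicate 3 was lowest, and Foxp3 was lowest there too. The summed signal of the 4 markers was 37537 on replicate 1, 45385 on replicate 2 and 25575 on replicate 3.

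The probe set chosen for a gene sets its level. Further probe sets of Ikzf2 read 8685.8, 3597.6 and 1032.4, and 189.4, 273.0 and 132.2, and the other set of Il2ra read 1321.0, 1124.6 and 479.4. Replicate 3 was lowest in each, and the dimmest set of Ikzf2 was highest on replicate 2. Across the 6250 genes above background with several probe sets, the brightest exceeded the next by a median of 1.57 log2 units.

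**Figure D1:**
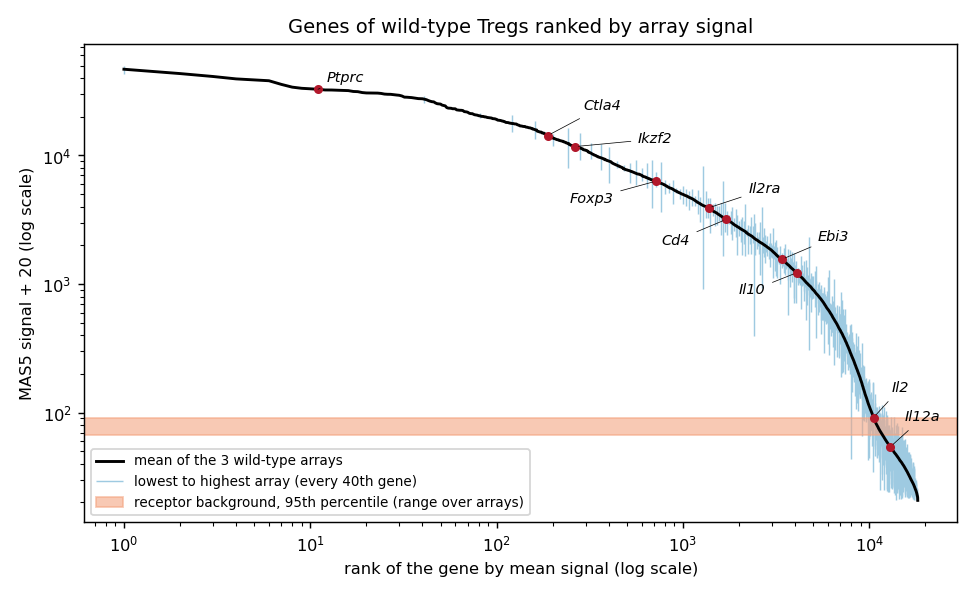
Genes of wild-type Tregs ranked by mean MAS5 signal plus 20 over 3 arrays, both axes on a log scale; the line is the mean, the thin bars span the lowest to the highest array for every 40th gene, and the band is the receptor background. Ptprc sits near the top, and Ctla4, Ikzf2, Foxp3 and Il2ra lie in the brightest 10%. Ebi3 and Il10 lie further down the curve, the mean of Il2 lies close to the upper edge of the band, and Il12a lies under the band.

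The brightest genes were those of the translation machinery and of the actin skeleton. Of the 20 brightest genes 13 encode proteins of the cytosolic ribosome, and so do 31 of the 100 brightest. Rpl13a, a protein of the large subunit, ranked first with 42805, 47838 and 49894. Rps29, of the small subunit, followed with 41068, 44171 and 44787, and Rps18 with 39056, 47551 and 36828. Replicate 1 was lowest for the genes Rpl13a and Rps29, and replicate 3 for Rps18, all within a narrow range. Rps3a1, Rpsa, Rps20, Rplp2, Rps4x, Rps7, Rps14, Rpl7a, Rplp0 and Rpl10a completed the ribosomal members of the 20, with means between 30630 and 39399. Eef1a1, the elongation factor that brings transfer RNA to the ribosome, had a mean of 32312 ± 1724, and Tpt1, a growth-related protein, 30842 ± 2114.

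Among the 20 brightest the cytoskeleton was represented by Actg1, a cytoplasmic actin, and by Tmsb4x and Tmsb10, thymosins that bind free actin. Tmsb4x gave 34073, 32877 and 32082, the smallest spread of the 20 (coefficient of variation 3.04%). The remaining pair were Ptprc and Hspa8. Ptprc (CD45), the tyrosine phosphatase on the surface of all white blood cells, gave 29027, 32894 and 36276 at rank 11. The other Ptprc probe set was dimmer and had the opposite order of arrays, at 4406.0, 2021.7 and 1693.3. Hspa8, the constitutive Hsp70 chaperone, gave 27781, 35756 and 30493. The widest range within these 20 genes was 0.41 log2 units, and coefficients of variation ran from 3.04% to 16.2%.

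The list of ribosomal proteins as a whole was bright but not even. Of 79 listed genes 44 were measured, 37 of them in the brightest 10% and 43 above background, with a median percentile of 99.8. Rps16 was the exception at 7.9, 19.7 and 1.3, and Rps27 (mean 230.3) and Rpl39 (300.3) were also dim. Rps28 read 34423 and 37673 on replicates 1 and 2 and 13023 on replicate 3, while its other probe sets read between 23049.6 and 29338 on all arrays, so that this difference rests on 1 probe set. Of the probe sets that stand for the 100 brightest genes 36% carry a suffix (s or x) that marks probes shared with other transcripts, against 9.34% of all genes, and signals of such genes may include their copies. In the list of actin and thymosin genes 19 of 21 measured members stood in the brightest 10%, with a median percentile of 99.1.

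The promoters of ribosomal genes were read from RefSeq (GRCm38.p6) as the 250 bases before the start of a transcript. Of 45 promoters found for 39 of the 44 measured genes, 16 held the ETS motif CCGGAAG or its reverse complement CTTCCGG, 35.6% against 6.91% of all 32851 promoters of the same length. A match is a description of the letters and not a site. Those of Rps3a1 (chr3:86142669-86142918, minus strand), Rps7 (chr12:28635954-28636203, minus strand) and Rpsa (chr9:120127516-120127765, plus strand) are shown as examples from the 20 brightest genes, 5' to 3', with the motif in capitals.
Rps3a1: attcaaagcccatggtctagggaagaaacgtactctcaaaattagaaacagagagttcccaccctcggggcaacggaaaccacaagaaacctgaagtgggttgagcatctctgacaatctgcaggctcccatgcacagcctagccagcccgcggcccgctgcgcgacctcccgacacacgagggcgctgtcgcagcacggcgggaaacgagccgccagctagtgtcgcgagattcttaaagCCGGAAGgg
Rps7: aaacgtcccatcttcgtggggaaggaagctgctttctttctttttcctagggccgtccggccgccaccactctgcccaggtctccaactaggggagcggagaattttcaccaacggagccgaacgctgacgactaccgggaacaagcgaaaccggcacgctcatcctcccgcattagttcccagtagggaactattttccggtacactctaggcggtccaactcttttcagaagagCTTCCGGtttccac
Rpsa: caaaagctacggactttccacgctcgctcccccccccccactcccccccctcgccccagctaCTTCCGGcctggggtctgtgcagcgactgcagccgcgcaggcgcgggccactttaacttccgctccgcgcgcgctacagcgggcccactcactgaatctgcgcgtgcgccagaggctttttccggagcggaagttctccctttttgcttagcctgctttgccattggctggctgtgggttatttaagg
In Rps3a1 and Rps7 the motif ends 2 and 7 bases before the start, and in Rpsa 181 bases before it.

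Energy metabolism genes were bright as well. Of 31 measured genes of oxidative phosphorylation, 24 were in the brightest 10% and all 31 above background (median percentile 97.1), led by Atp5c1, a subunit of ATP synthase (mean 21197 ± 4806), and Cox6a1 and Cox4i1 of cytochrome oxidase. Of 13 measured genes of glycolysis 6 were in the brightest 10% (median percentile 88.1). Ldha, lactate dehydrogenase, gave 14015, 6079.6 and 13919, lowest on replicate 2, and the glycolysis list was lower there in general (median of -0.42 log2 units against the mean of the other arrays, beside -0.11 for all genes).

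Beyond the markers, genes of Treg identity and of the effector surface were above background without exception. Of 31 listed genes 28 were measured, all 28 were above background and 17 were in the brightest 10% (median percentile 92.6). After Ctla4 came Icos, a costimulatory receptor, at 13659, 13594 and 9893.2, and Tnfrsf4 (OX40), a TNF receptor family member, at 10021, 8363.1 and 8816.6. Tnfrsf4 varied little, with a range of 0.26 log2 units. Cd83, a surface protein of activated lymphocytes, gave 4708.8, 14434 and 6987.3 and was highest on replicate 2. Izumo1r, the folate receptor 4 of Tregs, gave 10705, 3701.0 and 5882.7, and the orphan receptor Gpr83 gave 8135.2, 3051.4 and 6255.0. These receptors had the opposite order, with replicate 2 lowest. The dimmest of the list were Entpd1 (CD39, mean 573.4), Lag3 (354.3) and Havcr2 (TIM-3, 166.2), a nucleotidase and a pair of inhibitory receptors.

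**Figure D2:**
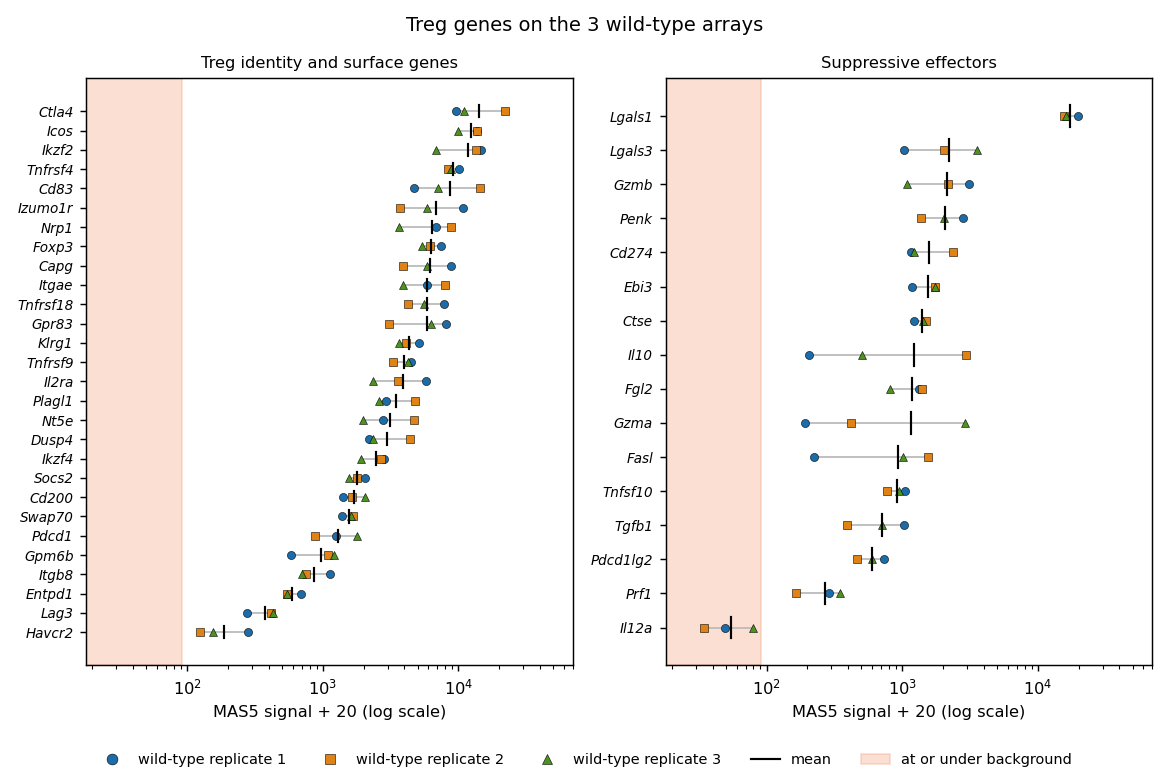
MAS5 signal plus 20 (log scale) of Treg identity genes (left) and suppressive effectors (right) on each wild-type array, with the mean as a vertical tick and the receptor background shaded. Ctla4 and Icos lead on the left and Lgals1 on the right; Il10, Gzma and Fasl have the widest spread, and Il12a is the only gene shown inside the shading.

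Suppressive effectors were mostly of middle brightness. Of 16 measured members 15 were above background, but only Lgals1 was in the brightest 10% (median percentile 77.3). Lgals1, galectin 1, a secreted lectin that can kill activated T cells, gave 19748, 15668 and 16239. The serine protease Gzmb (granzyme B) gave 3066.5, 2168.8 and 1071.9, lowest on replicate 3. Penk, the precursor of the enkephalins, had a mean of 2059.1 ± 724, and Cd274 (PD-L1), a ligand of the inhibitory receptor PD-1, 1565.9 ± 686. The pore-forming Prf1 was dim at 270.2, 144.1 and 328.0.

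Among the effectors Il10, Fasl and Gzma differed most from array to array, and not in the same way. Il10, the suppressive cytokine, gave 184.5, 2939.8 and 483.8, so that replicate 2 alone sets its mean of 1202.7 ± 1512. Without replicate 2 the mean was 334.2. Fasl, the death ligand, gave 203.3, 1522.9 and 991.5, lowest on replicate 1. Gzma (granzyme A) gave 173.0, 401.2 and 2875.1 and was highest on replicate 3, as were most markers of CD8 T and NK cells, whose part in this signal was not tested.

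The cytokine genes split between a few bright members and many at background. Of 54 listed cytokines and TNF family ligands 49 were measured, and 19 of them (38.8%) were above background against 54.2% of all genes, with a median percentile of 42.3. The brightest were Ltb and Il16, the only members in the brightest 10%. Ltb, lymphotoxin beta, which organises lymphoid tissue, gave 18469, 12600 and 10678. Il16, a chemoattractant of CD4 cells, gave 8646.0, 6489.7 and 8288.2. Both were present at this level on every array, with Ltb highest on replicate 1.

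Below them stood Tnfsf11 (RANKL, mean 1952.4 ± 347), Ebi3 and Lta (lymphotoxin alpha, 1517.4 ± 739). Ifng, interferon gamma, the effector cytokine of Th1 cells, gave 307.3, 1666.6 and 1009.4, lowest on replicate 1. At the bottom were Il33, Il31 and Il3, each under 10 on all arrays. Il2 read 47.2, 80.3 and 87.2, above the background level on replicates 2 and 3 alone. Chosen after their values were seen, Il4 (30.6, 19.0 and 71.2) and Il17a (73.7, 170.3 and 49.7), cytokines of Th2 and Th17 cells, were also not above background on all arrays.

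The chains of IL-35 differed in level. Ebi3 gave 1159.0, 1727.8 and 1725.9, a mean of 1537.6 ± 328 at rank 3396, and all arrays were far above background. Il12a gave 28.9, 14.7 and 59.2, under background on every array. A probe set under background gives only a bound, so that no ratio of the chains follows. In the list of the IL-10 and IL-35 pathway, 11 of 13 measured members were above background. That list holds cytokine chains such as Il12a as well as receptors and signalling partners. Il6st (gp130) gave 4055.9, 2780.1 and 3861.9 and Il27ra, which pairs with it in the IL-27 receptor, 3367.2, 3410.1 and 3413.6. Il27ra had a range of 0.02 log2 units. Il10ra, the ligand-binding chain of the IL-10 receptor, gave 774.5, 502.1 and 974.0, and Il12rb2, a chain of the IL-12 receptor, was at background with 67.3, 19.2 and 32.9. The kinase Jak1, which serves many of these receptors, had a mean of 7797.7 ± 2037, and Socs3, an inhibitor of their signals, 6133.3 ± 1612.

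**Figure D3:**
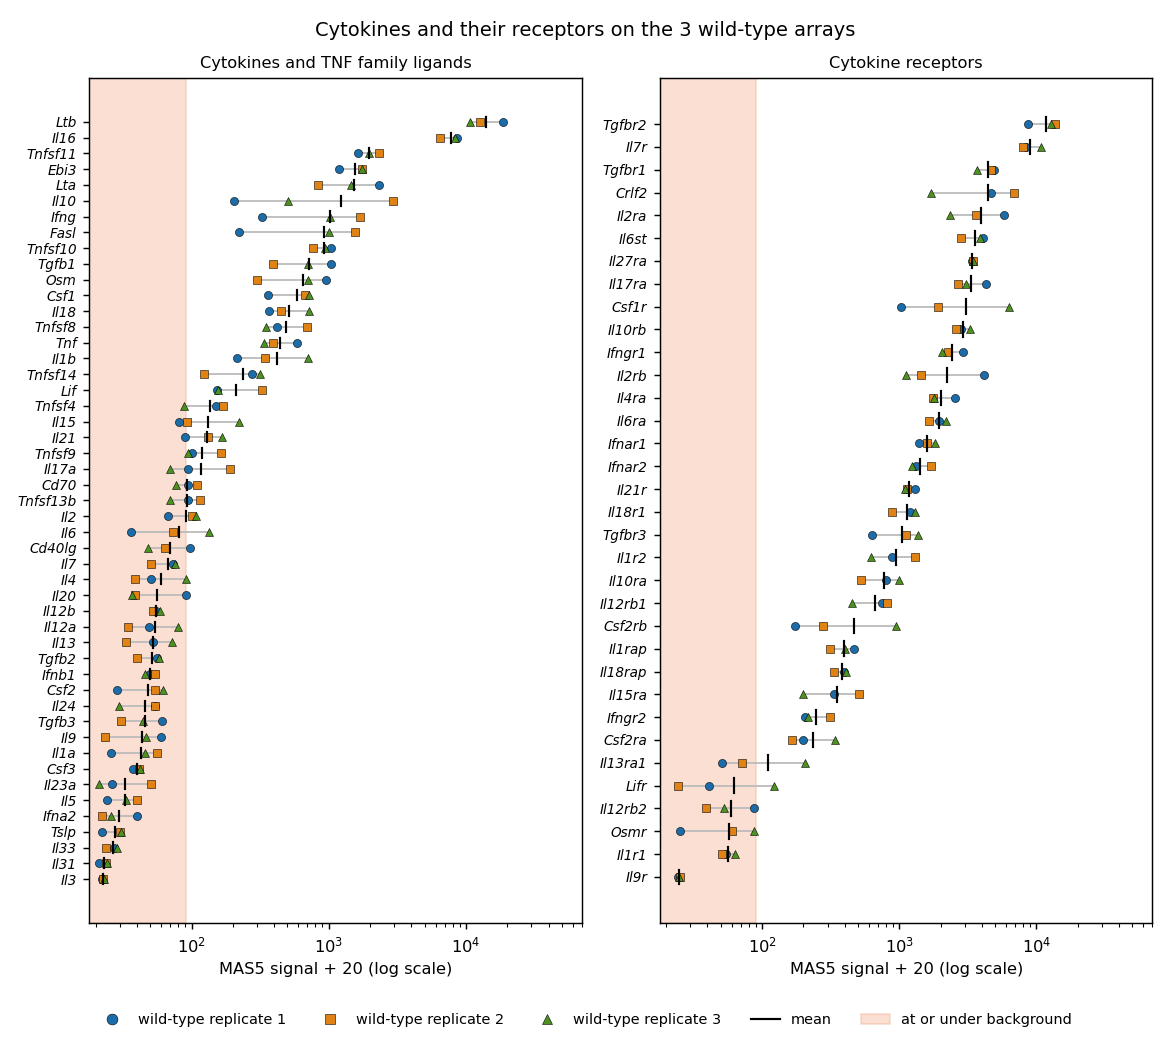
MAS5 signal plus 20 (log scale) of cytokine and TNF family ligand genes (left) and cytokine receptor genes (right) on each wild-type array, with the mean as a tick and the receptor background shaded. On the left 30 of 49 genes are not above background on all arrays, and on the right 28 of 34 are above it; Il10 and Csf1r have wide spreads.

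Most cytokine receptors were above background. Of 34 measured receptors 28 were above background (82.4%, against 54.2% of all genes) and 9 in the brightest 10% (median percentile 76.7). Tgfbr2, a chain of the TGF beta receptor, led with 8649.4, 13584 and 12632. Tgfbr1, another chain of it, came after Il7r with a mean of 4416.5 ± 644. Il7r, the receptor of the survival cytokine IL-7, which Tregs are known to carry at low density on the surface, gave 8375.1, 7905.3 and 10751. The other Il7r probe set was dimmer at 2247.9, 1041.9 and 964.6, with replicate 3 lowest and not highest. Crlf2, the receptor of thymic stromal lymphopoietin, gave 4654.3, 6853.7 and 1689.4 and was lowest on replicate 3. Csf1r, the receptor of macrophage colony-stimulating factor, gave 1013.6, 1887.7 and 6258.5, highest on replicate 3. Without replicate 3 its mean was 1450.7 against 3053.3 with it.

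In the IL-2 and STAT5 pathway all 15 measured members were above background and 9 were in the brightest 10% (median percentile 92.5). Il2rb, the beta chain of the IL-2 receptor, gave 4106.9, 1411.5 and 1106.4, highest on replicate 1 as Il2ra was. The survival protein Mcl1 (mean 15826 ± 4051) and the cyclin Ccnd2 (13878 ± 2566) were the brightest, and the kinase Pim1 gave 6723.9, 11548 and 7001.2. Jak3 (1550.1, 545.0 and 1267.5) and the inhibitor Socs1 (324.3, 176.9 and 106.4) were at the lower end.

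In the TGF beta pathway 13 of 15 measured members were above background and 5 were in the brightest 10%. Tgfb1, the main TGF beta of lymphocytes, gave 1018.8, 374.2 and 688.4, lowest on replicate 2. Tgfb2 and Tgfb3, the other ligands, were under background on every array. Skil (mean 6854.1 ± 2459) and Smad7, which both dampen TGF beta signals, were highest on replicate 2, at 9688.0 and 3059.9. The signal carrier Smad4 had a mean of 4474.4 ± 622.

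Of the TNF receptor family 11 of 19 measured members (57.9%) were above background, near the 54.2% of all genes. In the brightest 10% were 4 (21.1%). Tnfrsf4, Tnfrsf18 (GITR) and Tnfrsf9 (4-1BB), costimulatory receptors known from Tregs, were among the 5 brightest, with Tnfrsf1b, the TNF receptor 2, at 5901.9, 5592.7 and 5053.4. Tnfrsf1b differed by 0.22 log2 units at most. Tnfrsf13c, the receptor of the B cell survival factor BAFF, gave 163.8, 195.8 and 509.3, highest on replicate 3.

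Chemokine receptors and adhesion molecules steer T cells between blood, lymph nodes and tissues. Of 18 measured chemokine and S1P receptors 15 were above background (83.3%, against 54.2% of all genes) and 3 in the brightest 10%. These 3 were Ccr7, which guides cells to lymph nodes (3592.6, 6279.9 and 2994.6), Cxcr3, a receptor for interferon-induced chemokines (3285.9, 4813.3 and 4101.9), and S1pr4. Ccr6 (mean 2270.0 ± 274) and S1pr1, the exit receptor of lymph nodes (2285.4, 1360.0 and 1211.6), were next. Cxcr4 gave 439.9, 2318.2 and 831.0, highest on replicate 2, and S1pr4 gave 4576.6, 1295.5 and 3239.8, lowest there. Of 14 measured adhesion molecules all were above background and 10 in the brightest 10%. The beta 2 integrin Itgb2 (mean 13054 ± 680), the selectin ligand Selplg (11988 ± 3119) and Itgb7, an integrin chain of gut homing (9535.9 ± 2311), led that list. Cd69, an early activation marker that holds cells in tissue, gave 2825.4, 17942 and 4635.0, with replicate 2 far above the others.

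Inhibitory and costimulatory receptors were above background in 15 of 16 measured cases and 6 were in the brightest 10% (median percentile 84.6). Cd28, the main costimulatory receptor, gave 4552.2, 12543 and 5720.7, highest on replicate 2 as Ctla4, which shares its ligands, was. Cd226 was the member not above background on all arrays.

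Genes of the T cell receptor complex and of T cell lineage were bright throughout. Of 23 measured members all were above background and 18 in the brightest 10% (median percentile 96.2). After Ptprc came Cd52 (mean 23077 ± 4346), the receptor modulator Cd5 (13484 ± 2695), Cd2 (13364 ± 2258) and Thy1 (9470.2 ± 2214). Among signalling genes of the receptor 20 of 20 measured members were above background. Dgkz and Dgka, kinases that damp the signal by using up diacylglycerol, were the brightest at means of 17960 ± 2303 and 14247 ± 3366, ahead of the adaptor Lat (8134.6 ± 3168). The widest spreads were those of Rel, an NF-kappa B subunit (537.7, 3625.0 and 868.9), and Cblb, a ubiquitin ligase that limits activation (2340.8, 4746.1 and 992.1). Replicate 2 was highest for both.

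Transcription factors were almost all detected. Of 60 listed factors of T cells and Tregs 56 were measured. Of these 55 were above background (98.2%, against 54.2% of all genes) and 23 in the brightest 10% (median percentile 87.8). Klf2, a factor of quiescence and of exit from lymph nodes, led with 9627.6, 18498 and 11110.3. Ikzf2 was next. Ets1, which activates many T cell genes, gave 15720 (replicate 1), 12833 (replicate 2) and 6199.7 (replicate 3). Hif1a, a factor regulated by oxygen, had a mean of 11248 ± 2940, and Bcl11b, which commits cells to the T lineage, gave 11552, 11123 and 10097. Bcl11b was the steadiest of these with a range of 0.19 log2 units. Foxp3 was the 12th brightest of the 56.

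At the lower end were Tbx21 (T-bet, the factor of Th1 cells) at 328.9, 182.7 and 546.7, Eomes at 157.1, 160.3 and 536.4, and Pparg at 14.2, 152.9 and 165.8. Pparg, a factor of Tregs in fat tissue, was the member not above background on all arrays. Tbx21 and Eomes were highest on replicate 3. Among the factors above background the widest spreads were those of Rel, Id2 (2793.2, 11227 and 1948.8) and Klf6 (1374.5, 6928.6 and 2978.4), which were all highest on replicate 2.

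Cell division genes were nearly all detected. Of 32 measured proliferation genes 31 were above background (96.9%, against 54.2% of all genes) and 8 in the brightest 10% (median percentile 73.2). Pcna, the sliding clamp of DNA synthesis, gave 9771.7, 9523.9 and 10886, and the replication helicase subunit Mcm7 had a mean of 8100.8 ± 1576. Stmn1, a tubulin-binding protein of dividing cells, gave 4608.1, 4414.2 and 9092.8, highest on replicate 3. The median range of the members above background was 0.52 log2 units, beside 0.61 for all genes above background.

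Interferon response genes were above background in all 30 of 30 measured cases, against 54.2% of all genes. Of the 30, 8 were in the brightest 10% (median percentile 83.4). Ly6e, a surface protein induced by interferon, gave 22273, 10539 and 18000.2. Replicate 2 was the lowest array for 22 of the 30, and the median departure there was -0.55 log2 units against -0.11 for all genes. Oas3, a sensor of double-stranded RNA, gave 571.2, 121.4 and 420.6, and Ifit3 gave 985.0, 303.4 and 669.9. The list of class I antigen presentation had 12 of 13 measured members in the brightest 10%, with B2m, the light chain of class I molecules, at 29208, 30682 and 29132.

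Between arrays, most genes moved little and a small set moved far. The median range over the 3 arrays was 0.61 log2 units among genes above background, and 1985 of them (20.1%) had a range over 1 unit. The range narrowed with brightness, from 0.69 in the dimmest 2467 of these genes to 0.54 in the brightest 2467, and to 0.38 in the brightest 181. With 1 array left out the median range was 0.33 to 0.42, lowest without replicate 2. A gene was taken to stand apart on an array where it lay over 1 log2 unit above, or below, both others. On replicate 1 295 genes (1.62%) stood above and 203 (1.12%) below. The counts were 305 (1.68%) and 359 (1.97%) on replicate 2, and 357 (1.96%) and 191 (1.05%) on replicate 3.

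**Figure D4:**
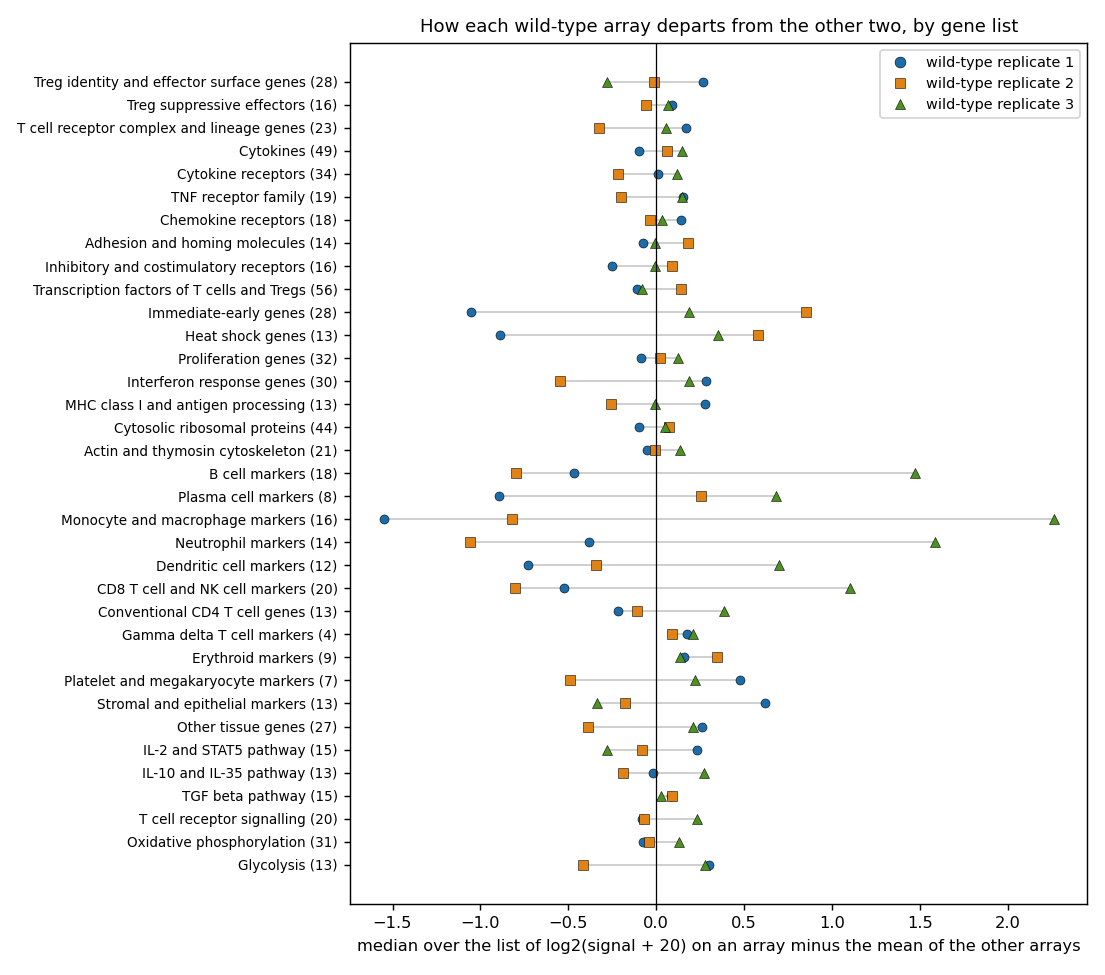
Median over each gene list (number of measured genes in brackets) of log2(signal + 20) on an array minus the mean of the other arrays, for the 3 wild-type arrays. Immediate-early and heat shock genes lie lowest on replicate 1 and highest on replicate 2, and B cell, monocyte and macrophage, neutrophil, dendritic and CD8 T or NK cell markers lie highest on replicate 3.

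Immediate-early genes set replicates 1 and 2 apart. All 28 listed genes were measured, 26 were above background and 20 were in the brightest 10% (median percentile 95.1). Their median departure from the mean of the other arrays was -1.05 log2 units on replicate 1, 0.85 on replicate 2 and 0.19 on replicate 3, against 0.05, -0.11 and 0.06 for all genes. On replicate 1 23 of the 28 were lowest and 10 stood apart below, beside 1.12% of all genes. On replicate 2 24 were highest and 9 stood apart above, beside 1.68%. With replicate 3 left out 17 members lay over 1 unit lower on replicate 1 than on replicate 2. The summed signal of the list was 122799, 307822 and 206782.

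The transcription factor Klf4 had the widest range of all genes above background, 5.62 log2 units, with 228.5, 12219.9 and 5602.3. Nr4a2, an orphan nuclear receptor induced by antigen receptor signals, gave 211.9, 4564.2 and 1440.0, and Fosb, a partner in AP-1, gave 159.3, 3309.4 and 1128.5. For all 3 genes replicate 1 was lowest and replicate 2 highest. Tnfaip3 (A20), an inhibitor of NF-kappa B, gave 2756.4, 33119.5 and 16103, and the phosphatase Dusp1 gave 5743.4, 27686 and 24498. Nfkbia, the inhibitor that NF-kappa B induces against itself, was the brightest of the list at 18116, 25133 and 26022, also lowest on replicate 1. Of the 20 genes above background with the widest ranges, Siah2 (107.2, 3483.9 and 725.6), Cxcl2 (150.7, 4020.4 and 1359.4), Bhlhe40 (606.4, 12334 and 2010.0), Fosl2 (142.6, 2352.4 and 341.1) and Nfil3 (248.2, 3468.8 and 446.8) had the same order of arrays and were not in the list. Dennd4a (114.6, 1979.4 and 142.7) and Il10, also among these 20 and not in the list, shared that order. Others of the 20 had another order, lowest on replicate 1 and highest on replicate 3. They were Slc40a1 (393.6, 944.9 and 6193.9), Clec4a3 (125.6, 204.0 and 2058.5), Ccl9, Treml4, Plbd1, Tgfbi and Gzma.

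Heat shock genes followed the low end of that pattern. Of 13 measured members 12 were above background and 10 in the brightest 10% (median percentile 97.2). The median departure was -0.89 log2 units on replicate 1, 0.58 on replicate 2 and 0.35 on replicate 3, and 11 of 13 were lowest on replicate 1. Hspa1a, an Hsp70 gene induced by heat and stress, gave 584.9, 7442.0 and 7883.8, and Hspa1b gave 4140.7, 25937 and 20779. Dnajb1, the Hsp40 partner of Hsp70, gave 3692.8, 9930.7 and 9329.0. Replicate 1 was the low array for each of these, and in these probe sets the others were close together. Further Hspa1b sets read 2661.7, 18343 and 13794.5, and 2017.0, 16304 and 7409.8. Replicate 1 was lowest in both, but replicates 2 and 3 lay further apart. The constitutive Hspa8 differed less, by 0.36 log2 units. On replicate 1 5 of the 13 stood apart below, beside 1.12% of all genes.

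Heat shock factors bind arrays of short inverted repeats. Such a pair, GAANNTTC or TTCNNGAA, was found, on either strand, in 8 of 15 RefSeq promoters of 250 bases (7 of 10 genes), 53.3% against 12.8% of all 32851 promoters, and in 7.41% of those of immediate-early genes. The windows of Hspd1 and Hspe1, which lie head to head, share 215 bases, so that their matches are the same letters. A window without a match says only that these letters are absent from it. The windows of Hspa1a (chr17:34972157-34972406, minus strand), Hspa1b (chr17:34959239-34959488, minus strand) and Hspe1 (chr1:55087898-55088147, plus strand) are shown with the matches in capitals, the Hsp70 copies because their likeness bears on the array values.
Hspa1a: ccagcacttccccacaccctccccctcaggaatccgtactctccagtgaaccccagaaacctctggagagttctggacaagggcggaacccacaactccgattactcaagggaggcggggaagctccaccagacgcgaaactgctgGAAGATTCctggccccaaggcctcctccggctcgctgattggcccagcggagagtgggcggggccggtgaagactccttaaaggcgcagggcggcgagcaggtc
Hspa1b: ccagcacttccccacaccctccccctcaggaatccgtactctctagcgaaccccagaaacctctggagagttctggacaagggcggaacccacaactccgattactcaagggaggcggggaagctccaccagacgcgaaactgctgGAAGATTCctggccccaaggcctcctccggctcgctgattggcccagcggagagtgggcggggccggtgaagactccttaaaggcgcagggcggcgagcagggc
Hspe1: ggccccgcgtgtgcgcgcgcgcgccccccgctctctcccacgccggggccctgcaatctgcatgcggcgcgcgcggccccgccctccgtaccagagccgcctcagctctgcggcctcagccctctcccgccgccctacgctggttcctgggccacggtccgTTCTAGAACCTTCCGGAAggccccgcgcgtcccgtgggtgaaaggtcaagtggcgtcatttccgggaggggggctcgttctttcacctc
The windows of Hspa1a and Hspa1b differ at 3 of 250 positions (98.8% identical) and hold the motif 96 bases before the start. These genes are near-identical copies, and their probe sets may read both, so the split of signal between them is uncertain. Hspe1, a mitochondrial chaperonin chosen after its values were seen because its window holds overlapping matches, gave 4270.3, 5064.8 and 2953.3 and did not share the pattern of the Hsp70 genes.

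**Figure D5:**
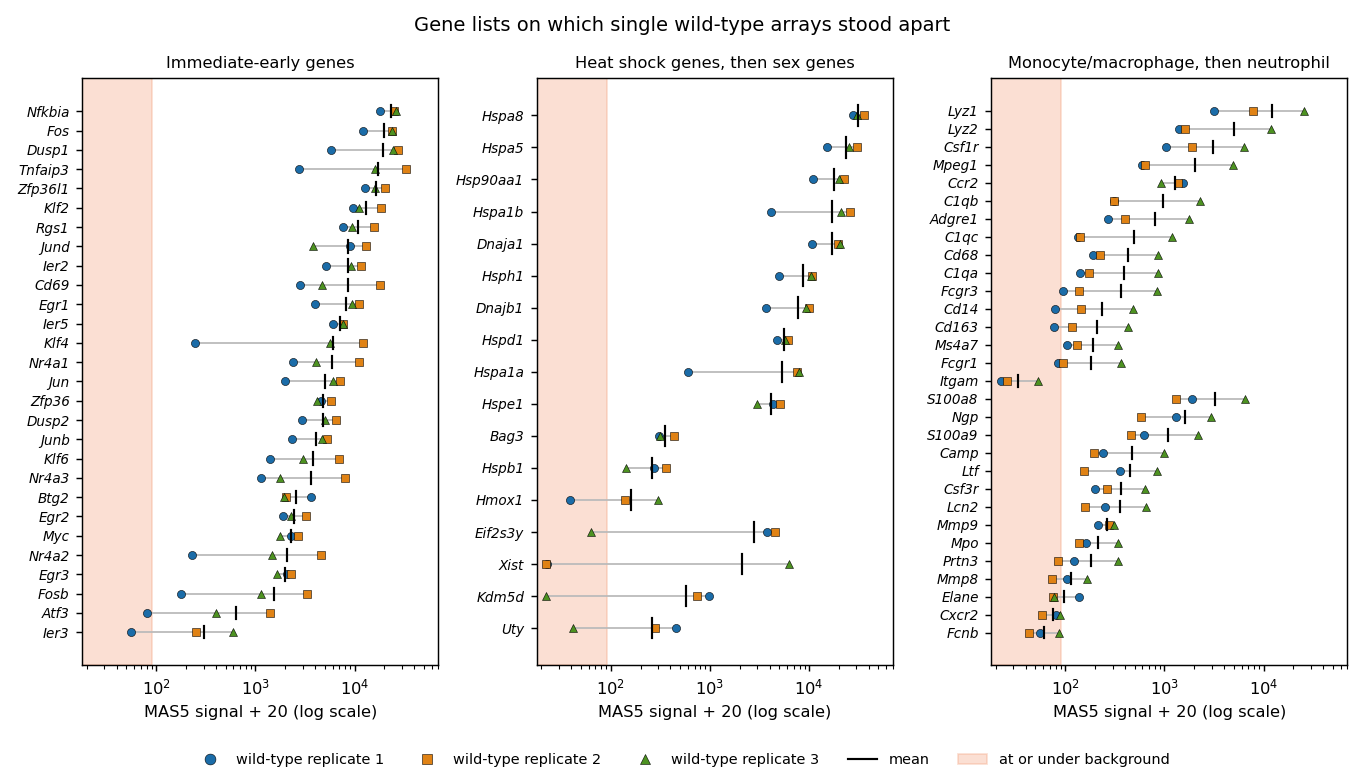
MAS5 signal plus 20 (log scale) on each wild-type array of immediate-early genes (left), heat shock and sex-linked genes (middle) and monocyte, macrophage and neutrophil markers (right), with the mean as a tick and the background shaded. Replicate 1 lies at the low end for most immediate-early and heat shock genes, and replicate 3 at the high end for 15 of 16 monocyte and macrophage markers and for Xist.

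Markers of other blood cells set replicate 3 apart. In sorted cells measured in bulk, a difference in such a signal does not tell a change in the number of those cells from one in RNA per cell. The 18 measured B cell markers summed to 25401, 29816 and 62747 on replicates 1, 2 and 3, the 16 of monocytes and macrophages to 8931.1, 15009.5 and 58581, the 14 of neutrophils to 5444.8, 3589.6 and 15836, and the 20 of CD8 T and NK cells to 7229.1, 6749.2 and 16969. Replicate 3 was the highest array for 17 of 18, 15 of 16, 13 of 14 and 17 of 20 of these genes in that order. Beside 1.96% of all genes, 10, 14, 9 and 9 of them stood apart above on replicate 3. Without replicate 1, 14 of the 20 CD8 T and NK cell markers lay over 1 unit above replicate 2.

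Lyz2, lysozyme of macrophages and neutrophils, gave 1369.8, 1578.4 and 11902, and Lyz1 3172.4, 7875.5 and 25364. The Lyz1 values come from a probe set whose probes may be shared with other transcripts, and a Lyz1 set without that mark was under background at 25.5, 22.6 and 27.1. C1qc, a complement chain made by macrophages, gave 115.7, 121.2 and 1185.4. These genes were low on replicates 1 and 2 and high on replicate 3. Among B cell markers H2-Aa, a class II histocompatibility chain, gave 4027.7, 5039.1 and 17506, and Cd74, the invariant chain, 1629.7, 1840.1 and 6336.6. Ighm, the heavy chain of IgM, was bright on every array at 13310, 17438 and 19615, in a probe set whose probes may be shared with other transcripts. A further Ighm set read 10485, 11748 and 17325. The next read 235.3, 847.3 and 1384.9, and the remaining Ighm sets were dimmer still. S100a8, a calcium-binding protein of neutrophils, gave 1859.7, 1297.0 and 6480.6.

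The dimmest members of these lists were near background. Pax5, the identity factor of B cells, gave 62.6, 59.5 and 34.6 and was the only B cell marker not highest on replicate 3. Other factors of B cells were highest there, with Ebf1 at 69.7, 58.1 and 155.8 and Spib at 184.7, 109.1 and 594.6. Itgam (CD11b) of myeloid cells gave 2.3, 5.8 and 33.2. The killer cell genes Klra7, Klra1 and Klrc2 were not above background on all arrays, while Klrd1 gave 154.7, 198.1 and 1168.8 and Tyrobp, a signalling adaptor of NK and myeloid cells, 382.5, 648.4 and 3380.9. Markers of stromal and epithelial cells stood above background in 2 of 13 cases (15.4%) and those of other tissues in 5 of 27 (18.5%). The share of all genes was 54.2%. Mbp (mean 4893.0 ± 654) was the only member of either list in the brightest 10%. Mbp transcripts are also known outside the nervous system. The part of other cells in the signals of replicate 3, such as its lower Foxp3, Ikzf2 and Il2ra values, was not tested.

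The markers of the remaining cell types were partly above background. Of 12 measured dendritic cell markers 6 were above background, and all 12 summed to 7086.7, 9094.8 and 14688, with Itgax (CD11c) at 113.1, 209.5 and 969.8. Of 8 plasma cell markers 6 were above background (75%, against 54.2% of all genes). Among them was Jchain, the joining chain of secreted antibodies, at 431.9, 1013.3 and 1993.3. Irf4 and Prdm1 of that list are also in the list of T cell and Treg factors. Replicate 3 was highest for Itgax and Jchain. Erythroid markers were above background in 5 of 9 cases, platelet markers in 3 of 7 and gamma delta T cell markers in 2 of 4, with none of these genes in the brightest 10%. The shares of dendritic (50%), erythroid (55.6%), platelet (42.9%) and gamma delta (50%) markers lay near or under the 54.2% of all genes. Such counts do not set these lists apart from other genes. Genes typical of conventional CD4 T cells were above background in 10 of 13 cases and 7 were in the brightest 10%, led by Dgka, Il7r and the chromatin organiser Satb1 (mean 8380.4 ± 562). Igfbp4, a growth factor binding protein of naive T cells, gave 6420.3, 2899.5 and 9677.0, highest on replicate 3.

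The genes that stood farthest apart included products of other tissues. Farthest above on replicate 3 after Xist were Ms4a2 (7.9, 2.3 and 616.0) and Cpa3 (13.5, 18.2 and 608.5), genes of mast cells and basophils, followed by the S1P receptor S1pr5 (5.1, 5.8 and 292.6) and Chil3, a secreted protein of myeloid cells (316.8, 321.1 and 3437.5). On replicate 2 Bpifa2 (46.1, 1649.9 and 90.8), Smr3a (15.4, 264.9 and 12.9) and Amy1 (55.3, 571.4 and 57.9) were among the 5 farthest above, and all encode products of salivary glands. Dennd4a (114.6, 1979.4 and 142.7) and the phosphatase Dusp10 (313.5, 2886.6 and 337.0) completed those 5. On replicate 1 Igha, the heavy chain of IgA, was farthest below the others at 61.6, 1890.8 and 1906.6.

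Probe sets of a gene did not always share these gaps. Cryl1, an enzyme of sugar metabolism, was farthest above on replicate 1 at 5917.8, 5.8 and 216.0, but its other probe sets read between 80.7 and 743.3 on all arrays, highest on replicate 1. The nuclear RNA Malat1 was far below on replicate 2 at 12101, 1055.1 and 9525.7, and a further probe set of it was also lowest there at 2379.0, 420.5 and 1864.1. Another read 2037.5, 3329.3 and 4043.3, with replicate 2 in the middle. The transcription factor gene E2f5, with 5699.0, 267.3 and 1698.3, was among the 20 genes above background with the widest ranges, while its next probe set read 494.5, 551.2 and 452.1.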

How the data were processed

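Tregs were sorted by flow cytometry; per the labels' protocols, RNA came from a Qiagen column preparation, and biotin-labelled RNA was made from 1 µg in the 2-cycle Affymetrix procedure. MAS5 and Partek 6.4 are the tools listed in the submitters' processing notes. The values deposited by the authors are natural log values, which the numbers show to be ln of (MAS5 signal + 20): exp(value) minus 20 gave, for signals under 200, multiples of 0.1 within 0.005 on every array. The submitters state no such scale. Their trimmed mean (2% off each end) was 499.8 on every array, so no normalization was added.

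Of 45101 probe sets, 64 controls were left out, 34945 had 1 gene symbol, 932 several and 9160 none. Only those with 1 symbol were named, and 34741 were matched to RefSeq (GRCm38.p6) by gene identifier. A gene was represented by the probe set of highest mean. Python 3.11.15 with pandas 2.3.3 and numpy 2.4.6 was used, and the array comparison was tested on simulated data. No test was run, since the labels give 1 group here. The number of arrays limits precision.

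The arrays, the 37 gene lists (737 genes, 636 measured, 84 of these in more than 1 list) and the rule for naming were chosen with earlier results of these data known. The rule for genes standing apart on an array, over 1 log2 unit, was set after values were seen. Genes to name were drawn from the 20 brightest and the Treg and sex-linked markers. From each list up to 5 brightest, 3 dimmest and 3 most variable members could be named. So could the 20 most variable genes above background, and the 5 farthest above and below on each array. Not every such gene is named. Alternatives were quantile normalization, the mean over all probe sets, the mean of logs, other background levels, an offset of 100, and leaving out each array.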

Additional observations from a re-analysis of the deposited data

How the results depend on the processing

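Of the 100 brightest genes, 65 stayed among the 100 brightest when the mean over all probe sets stood for a gene, 99 with the mean of log2 values, 100 with quantile normalization, and 91 to 95 with 1 array left out. The count of genes above background was 9868, and 7944 to 10714 under the other settings. The median range between arrays, 0.61 log2 units, was 0.53 with an offset of 100 and 0.70 over all named genes, and 0.33 to 0.42 with 1 array left out, where the range spans fewer arrays. With 1 array left out the immediate-early genes apart on replicate 1 numbered 10 to 17, those apart on replicate 2 numbered 10 to 17, and the CD8 T and NK cell markers apart on replicate 3 numbered 10 to 14. The cause of these shifts beyond the smaller number of arrays was not tested. Of 671 genes whose means were recomputed, 225 fell by more than 1 SD with the mean over all probe sets, 1 moved that far with quantile normalization and 0 with the mean of log2 values. Leaving out 1 of 3 arrays can hardly move a mean by its own SD, so no such count is given for it; the mean of Il10 was 334.2 to 1711.8 with 1 array left out, against 1202.7. Leaving out an array gives no value for that array's own pattern. No paired analysis was possible because only the wild-type arrays were used, and no groups were compared. Signals near the receptor background carry no order, which limits the dim cytokine and receptor genes.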
